A study of Mus musculus with 7 samples.

Results

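The respiratory chain and the ATP synthase are the machinery with which mitochondria turn fuel into ATP. Complex I (NADH dehydrogenase) and complex II (succinate dehydrogenase) pass electrons to complex III (cytochrome bc1), which passes them through cytochrome c to complex IV (cytochrome c oxidase), and the proton gradient built on the way drives complex V, the ATP synthase. The subunits come from separate genomes, since a small core of complexes I, III, IV and V is encoded in mitochondrial DNA, whereas complex II and most other subunits are encoded in the nucleus and imported. Several nuclear subunits of complex IV have isoforms from separate genes, of which one is made in most tissues and the other mainly in lung, muscle or testis.

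These genes were followed in cells sorted from mouse mammary tumors, with 106 of the 31053 genes counted in the files as members. They were chosen by gene symbol alone, as names that start with mt-Nd, mt-Co, mt-Cyb, mt-Atp, Nduf, Uqcr, Cox4 to Cox8 or Atp5, together with Sdha, Sdhb, Sdhc and Sdhd. The prefixes as written found 105 of them, because cytochrome b is spelled mt-Cytb in the files, and that gene was added by hand. Of the members 13 were mitochondrial (7 of complex I, 1 of III, 3 of IV and 2 of V) and 93 nuclear. The nuclear members were 36 subunits of complex I, 8 Ndufaf assembly factors of complex I, 4 subunits of complex II, 8 of III, 20 of IV with Ndufa4 and Ndufa4l2, 16 of V and Atp5s, which is no subunit of the enzyme. Atp5o had 2 identifiers, one of which held no UMI in any library, and the other is meant wherever Atp5o is named. A filter on low counts left 89 nuclear and all 13 mitochondrial members for the tests between tumor types, without Cox6a2, Cox7b2, Cox8c and the empty Atp5o entry.

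The 7 libraries came from untreated tumors harvested at a similar size. BRCA1-null tumors (replicates A and B) arose in mice with K14-Cre and floxed alleles of both genes (Brca1 F/F and Trp53 F/F), in which Cre is driven by the keratin 14 promoter. PyMT tumors (A and B) grew from transplanted FF99WT cells, 1 line taken from an MMTV-PyMT tumor with floxed FIP200 alleles and no Cre. Neu tumors (A and B) arose spontaneously in MMTV-Neu mice, and that of Neu A had floxed FIP200 alleles and no Cre according to the methods of the study. All 6 of these were on the FVB/NJ background, whereas 4T1, a single library, was a transplant of a GFP-carrying cell line in BALB/C mice and entered no test between tumor types. Cells had been sorted as CD24+ and CD31- CD45- Ter119- according to the methods of the study. BRCA1-null and Neu tumors were spontaneous and PyMT tumors were transplants, so what is particular to PyMT and what to transplanted tumors cannot be told apart.

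Cells with at least 1000 UMIs (unique molecular identifiers, 1 per captured transcript), 500 genes and under 20% mitochondrial UMIs were kept, which left 12168 of 13745 barcodes. The libraries held 245 to 2308 cells and 5578911 to 37693300 UMIs, with BRCA1-null A the smallest on both counts. Barcode sequences found in more than 1 library numbered 118 and were carried by 213 of the cells. Epcam UMIs were found in 178 of 245 cells of BRCA1-null A, 1790 of 2078 of BRCA1-null B and in 1704 to 2299 cells of each other library. Mesenchymal markers summed to 2012 and 4953 CPM (UMIs of a gene scaled to a common library total) in BRCA1-null A and B and to 2182 in 4T1, against at most 50.9 in the PyMT and Neu libraries. Pericyte markers (Rgs5, Pdgfrb, Acta2, Mcam, Cspg4) summed to 253 and 327 in BRCA1-null A and B and to at most 4.43 elsewhere. Most of the BRCA1-null sums was Acta2, at 228 and 183, whereas Rgs5 stood at 11.5 and 77.6 and Pdgfrb at 4.48 and 43.4. Endothelial markers summed to 36.6 and 6.03 against at most 1.77. The part of these marker groups in the differences between tumor types was not tested except where cells were left out below. The loss of Brca1 and Trp53 could not be checked, since tags at the 3' end check nothing about exons deleted elsewhere in a gene, and Brca1 stood at 9.68 and 2.81 CPM in BRCA1-null and at 0.276 to 5.49 elsewhere.

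Nuclear members together made up 2.16% to 4.02% of the UMIs of a library and mitochondrial members 3.77% to 5.11%. The nuclear share was highest in the Neu tumors, at 3.22% and 4.02% (3.62% ± 0.563, SD, n = 2). It was 2.88% and 2.37% in BRCA1-null (2.63% ± 0.360, n = 2), 2.43% and 3.05% in PyMT (2.74% ± 0.444, n = 2) and 2.16% in 4T1. Both Neu libraries thus lay above all others, by a margin smaller than the SD within the tumor types. The mitochondrial share went the other way, at 4.12% ± 0.498 in Neu, 4.63% ± 0.628 in BRCA1-null and 4.97% ± 0.211 in PyMT (n = 2 each). Both Neu libraries (3.77% and 4.47%) lay below both PyMT libraries (5.11% and 4.82%). The BRCA1-null range (4.19% and 5.08%) overlapped with each of them. With 2 libraries per tumor type an exact permutation test of 2 against 4 values cannot give a p below 0.0667 (one-sided), so no test of these sums was made.

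**Figure D1:**
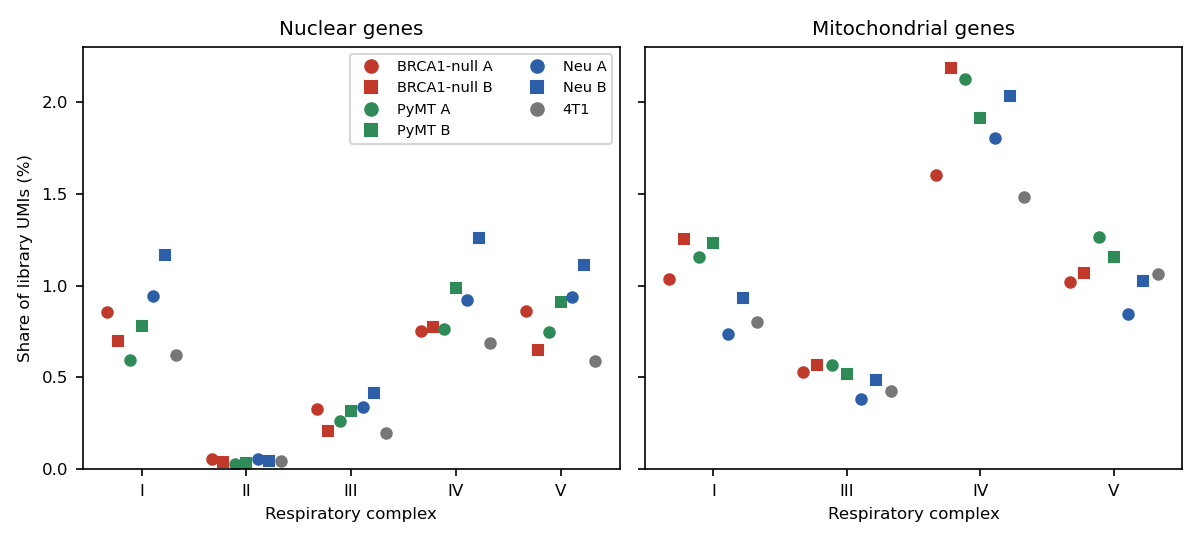
Share of the UMIs of each library (%) in the nuclear (left) and mitochondrial (right) genes of each respiratory complex; each point is 1 library, colored by tumor type, with circles for replicate A and 4T1 and squares for replicate B. Both Neu libraries were highest for nuclear complex I, at 0.942% and 1.17%, and at 0.738% and 0.934% they were the lowest of the 6 FVB/NJ libraries for mitochondrial complex I.

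Taken by complex, the balance of the genomes set the Neu tumors apart. For complex I the ratio of mitochondrial to nuclear UMIs was 0.784 and 0.802 in Neu A and B. It was 1.94 and 1.58 for PyMT, 1.21 and 1.79 for BRCA1-null and 1.29 for 4T1. Neu was therefore the only tumor type of the 4 with more nuclear than mitochondrial complex I transcripts in each of its libraries. Complex V followed the same order, at 0.901 and 0.922 in Neu against 1.18 to 1.80 in the other 5 libraries, and so did complex III, at 1.13 and 1.17 against 1.61 to 2.76. For complex IV, in contrast, the Neu ratios of 1.95 and 1.61 overlapped with the 1.95 of PyMT B, while mt-Co1, at 5680 and 6699 CPM in Neu, lay within or above the 3448 to 6309 of the other libraries. Complex II, which has no mitochondrial gene, held 0.0262% to 0.0528% of UMIs. These values sum over cells, and fewer cells of a type and less RNA per cell cannot be told apart in them.

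Per cell, the median nuclear share was 3.15% and 3.90% in Neu A and B and 2.07% to 2.77% in the other libraries, and with every cell thinned to 3000 UMIs it was 3.17% and 3.90% against 2.03% to 2.77%. The relation between the nuclear and the mitochondrial share of a cell differed in sign between libraries. Spearman's rho across cells, which share a library and differ in depth, was -0.35 in BRCA1-null A (245 cells), -0.14 in BRCA1-null B, 0.18 in Neu B and between -0.05 and 0.07 in the other 4. With the cells of a library split by depth into 4 equal parts, the deepest part had a higher median nuclear share and a lower median mitochondrial share than the shallowest in each of the 7 libraries. In BRCA1-null B, for example, the nuclear share was 2.55% against 1.86% and the mitochondrial share 4.16% against 6.87%.

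The 13 mitochondrial members differed widely in UMIs, and how evenly tags at the 3' end capture their RNA was not tested. mt-Atp6, a membrane subunit of the ATP synthase, was first in each of 6 libraries, with 20.9% to 28.0% of the mitochondrial members' UMIs, and in Neu A it was second at 22.3% to mt-Co3 at 22.6%. mt-Co3, a core subunit of complex IV, held 17.7% to 22.6%. At the other end mt-Nd6 held 0.00971% to 0.0597%. mt-Nd6 is the only member read from the light strand (mitochondrial position 13552 to 14070, minus strand, mm10). UMIs of genes that overlap cannot be told apart in the shared stretch, which is 43 bases for mt-Atp8 and mt-Atp6 and 7 bases for mt-Nd4l and mt-Nd4. The catalytic subunit mt-Co1 took 15.1% and 15.0% of these UMIs in Neu A and B, above the 9.14% to 12.4% of the other libraries, and mt-Nd1 took 8.84% and 7.53%, below the 9.18% to 10.9% of the others. Replicates differed as well. For A and B, mt-Atp8 took 0.077% and 0.307% in PyMT, 0.086% and 0.337% in Neu and 0.185% and 0.189% in BRCA1-null. mt-Nd3 took 0.842% and 1.88% in PyMT, 0.431% and 1.02% in Neu and 1.41% and 0.758% in BRCA1-null. Replicate and sequencing batch cannot be told apart here.

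To compare tumor types gene by gene, the UMIs of each library were summed and fitted with edgeR's quasi-likelihood test, which sets each tumor type against the mean of the other 2 and adjusts p over 13950 genes (Benjamini-Hochberg). The same 6 libraries serve all 3 comparisons, so these are not independent. Levels are CPM, while fold changes come from the fit, which rescales libraries by TMM. That scaling matters: with TMM the median log2 fold change of all genes was 0.09, -0.11 and -0.05 (BRCA1-null, PyMT, Neu), and with library totals it was 0.38, -0.37 and -0.07. Members are therefore also given relative to that median. Shares of all genes called are those of this fit and are no background for counts under other settings. Leaving out a library left its tumor type with no replicate, so a call lost that way cannot be told from a loss of power.

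In BRCA1-null tumors nuclear members were on the whole lower, with a median log2 fold change of -0.48 against 0.09 for all genes, a difference of -0.57 that was -0.55 with library totals. Of 89 nuclear members, 12 were lower (13.5%, against 9.72% of all genes) and 4 higher (4.49%, against 17.8% of all genes) at an adjusted p under 0.05, and 28 had an unadjusted p under 0.05. Among those higher, Cox4i2, Ndufa4l2 and Cox6b2 passed the filter on low counts only because of the BRCA1-null libraries. The number lower was 20 with DESeq2 and without the filter on low counts and 7 with library totals. With 1 library left out, the nuclear median relative to all genes ran from -0.73 (without Neu A) to -0.46 (without BRCA1-null B). None of the 13 mitochondrial members passed the test in edgeR or DESeq2, and 1 had an unadjusted p under 0.05 in edgeR. Their median was -0.11, which turned to 0.17 with library totals, and -0.20 relative to all genes with TMM and with library totals.

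In PyMT tumors nuclear members kept close to the rest of the transcriptome, with a median of -0.10 against -0.11 for all genes. Only 2 were higher (2.25%, against 7.05% of all genes) and 1 lower (1.12%, against 7.37%), and all 3 calls were lost without PyMT A, PyMT B or Neu A. DESeq2 called 5 lower, and 4 were lower with library totals and without the filter on low counts. Each of the 13 mitochondrial members had a positive log2 fold change with TMM, with a median of 0.45 that was 0.19 with library totals and 0.56 above all genes in both. Yet with the filter on low counts none passed the test with edgeR or DESeq2, and 1 had an unadjusted p under 0.05 in edgeR, while 1 passed in edgeR without that filter.

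The Neu tumors showed the opposite pattern for the 2 genomes. Nuclear members had a median of 0.58 against -0.05 for all genes, and 77 of 89 had a positive fold change. However, only 8 were higher at an adjusted p under 0.05 (8.99%, against 13.4% of all genes) and 0 lower (against 9.76%), while 36 had a positive change at an unadjusted p under 0.05, as 3 had a negative one. DESeq2 called 19 higher and 2 lower. In 42 of 89 both Neu libraries lay above the 4 others, against 19.8% of all genes, and in 1 below. Mitochondrial members had a median of -0.31, and 11 of 13 were negative, among which 1 passed the test. With 1 library left out, the nuclear median relative to all genes ran from 0.48 (without Neu B) to 0.86 (without Neu A).

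**Figure D2:**
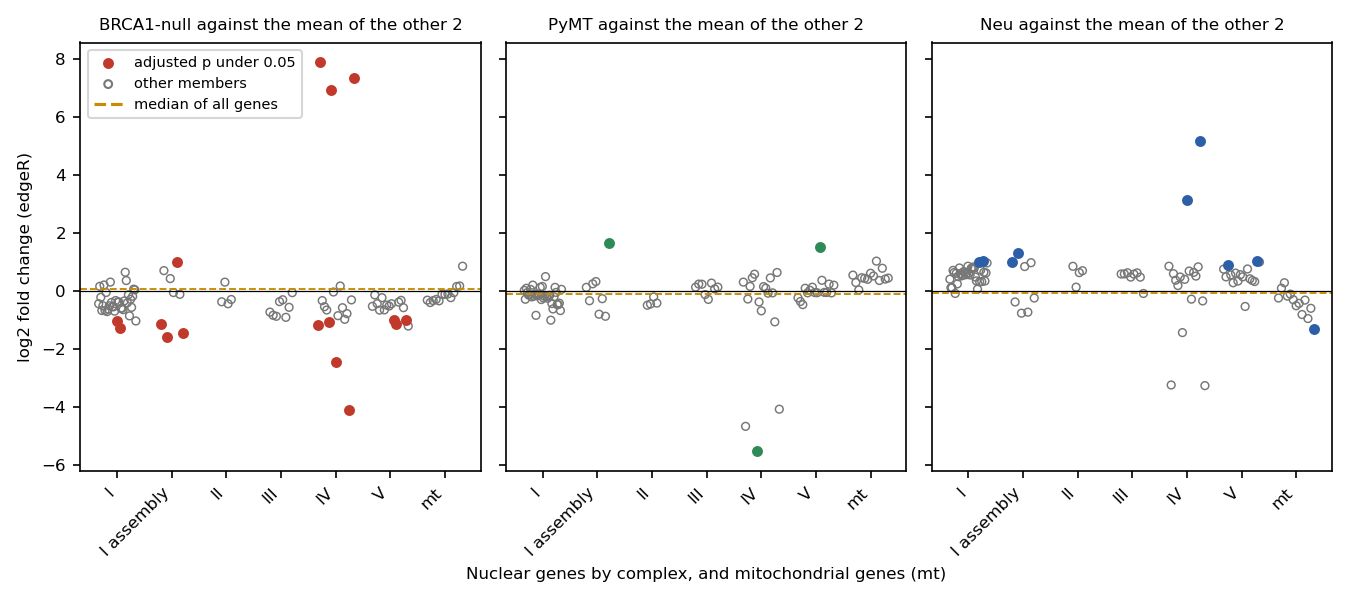
log2 fold changes (edgeR) of the members in each tumor type against the mean of the other 2, with nuclear genes by complex and the 13 mitochondrial genes (mt) on the x axis; filled points have an adjusted p under 0.05 and the dashed line is the median of all genes. Nuclear members lie mostly below the line in BRCA1-null (median -0.48) and above it in Neu (median 0.58), and the largest changes are in complex IV.

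Complex IV held the largest changes, and these were in isoforms. Cox4i2, Ndufa4l2 and Cox6b2 had at most 19 UMIs in any PyMT or Neu library. They passed the filter on low counts only because of the BRCA1-null libraries, so a high value there was a condition of being tested. Cox4i2, Ndufa4l2 and Cox6b2 were far higher in both BRCA1-null libraries than in the other 5 and Cox7a1 and Cox8b were highest in Neu tumors, while the common partners (Cox4i1, Ndufa4, Cox6b1, Cox7a2 and Cox8a) stood at 290 to 2078 CPM in all 7 libraries. The upstream sequences of 3 of the pairs are shown because the members of a pair differ in them. Each is the 250 bases before the RefSeq start on the gene's strand (GRCm38.p6), and CG dinucleotides are in capitals.
Cox7a1: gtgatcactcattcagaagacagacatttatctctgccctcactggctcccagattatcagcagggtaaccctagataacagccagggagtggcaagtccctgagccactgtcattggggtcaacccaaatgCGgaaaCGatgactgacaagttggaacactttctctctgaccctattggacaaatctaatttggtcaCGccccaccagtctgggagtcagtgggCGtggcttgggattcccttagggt
Cox7a2: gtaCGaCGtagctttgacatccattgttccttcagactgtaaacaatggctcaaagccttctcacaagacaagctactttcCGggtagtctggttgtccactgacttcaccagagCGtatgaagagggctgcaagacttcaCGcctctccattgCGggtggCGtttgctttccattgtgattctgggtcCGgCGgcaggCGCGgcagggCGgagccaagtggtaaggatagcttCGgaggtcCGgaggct
Cox8b: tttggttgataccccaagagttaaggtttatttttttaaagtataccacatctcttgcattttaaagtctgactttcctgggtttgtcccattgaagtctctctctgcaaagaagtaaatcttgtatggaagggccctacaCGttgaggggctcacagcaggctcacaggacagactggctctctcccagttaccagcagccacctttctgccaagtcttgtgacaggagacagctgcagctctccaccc
Cox8a: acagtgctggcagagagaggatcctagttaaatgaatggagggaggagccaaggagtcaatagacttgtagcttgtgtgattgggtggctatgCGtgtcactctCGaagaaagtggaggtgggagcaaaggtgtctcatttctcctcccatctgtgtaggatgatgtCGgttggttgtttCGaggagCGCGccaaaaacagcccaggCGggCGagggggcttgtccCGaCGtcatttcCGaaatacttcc
Cox6b2: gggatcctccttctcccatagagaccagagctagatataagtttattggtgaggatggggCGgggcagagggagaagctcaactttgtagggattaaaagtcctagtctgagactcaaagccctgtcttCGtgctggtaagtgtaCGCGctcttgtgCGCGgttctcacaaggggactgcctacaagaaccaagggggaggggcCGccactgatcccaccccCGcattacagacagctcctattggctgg
Cox6b1: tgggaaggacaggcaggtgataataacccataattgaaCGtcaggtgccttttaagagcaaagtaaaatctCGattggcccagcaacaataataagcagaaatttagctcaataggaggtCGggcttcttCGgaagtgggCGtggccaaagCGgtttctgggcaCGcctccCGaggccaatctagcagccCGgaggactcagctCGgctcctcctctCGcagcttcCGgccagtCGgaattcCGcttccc

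These windows lie at chr7:30183921-30184170 (plus strand) for Cox7a1, chr9:79759854-79760103 (minus) for Cox7a2, chr7:140900447-140900696 (minus) for Cox8b, chr19:7217617-7217866 (minus) for Cox8a, chr7:4753095-4753344 (minus) for Cox6b2 and chr7:30626115-30626364 (minus) for Cox6b1. In these pairs, picked because their members differ, the first member has fewer CG dinucleotides than its partner. The pairs of Cox4i1 with Cox4i2 and of Ndufa4 with Ndufa4l2 are not shown, so this does not extend to them. Cox7a1 has 4 and Cox7a2 14, Cox8b has 1 and Cox8a 11, and Cox6b2 has 8 and Cox6b1 14. The median over 32851 mouse windows was 6, and it was 14 over the 79 windows of the 74 nuclear members that matched by symbol, of 92 looked for. Read on both strands, CCGGAAG, the core letters of ETS factors, occurred in 17.7% of member windows and 6.91% of all, TGCGCA, the core of the NRF1 site, in 19.0% and 6.43%, and ATGGCGG, a YY1 motif, in 7.59% and 2.21%. ACGTG, part of the hypoxia response element, occurred in 19.0% and 16.6%, and once in the Cox8b window. A match of letters is a description and no evidence of binding.

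Cox4i2 (chromosome 2, 152754173 to 152765037, plus strand, mm10) encodes the isoform of subunit 4 found mainly in lung and in oxygen-sensing cells. It stood at 7.35 and 65.8 CPM in BRCA1-null A and B and at 0.0495 to 0.267 in the 5 other libraries. BRCA1-null was higher by 7.89 on the log2 scale (SE 0.98, edgeR, adjusted p = 0.00307). Ndufa4l2, a hypoxia-induced relative of the complex IV subunit Ndufa4, stood at 5.02 and 37.6 against 0.0552 to 0.198 elsewhere (log2 fold change 7.33, SE 0.88, edgeR, adjusted p = 0.00279). The groups did not overlap for either gene, but BRCA1-null B was higher than A by far. With 1 to 9 UMIs in each other library, the size of these fitted changes depends on the prior count.

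The cells that carried these UMIs differed between the BRCA1-null libraries. In BRCA1-null A, 10 of 245 cells had a Cox4i2 UMI (4.08%), and 1 cell held 29 of the 41 UMIs. For Ndufa4l2 it was 7 cells (2.86%), with 13 of the 28 UMIs in 1 cell. In BRCA1-null B, 610 of 2078 cells had a Cox4i2 UMI (29.4%), against 0.0514% to 0.451% of the cells of the PyMT, Neu and 4T1 libraries. With each cell thinned to 3000 UMIs, which left out 177 of the 2078 cells, the share in BRCA1-null B was 14.9% (95% exact binomial interval 13.3% to 16.6%, for counting error only) and at most 0.205% in PyMT, Neu and 4T1.

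Cells with at least 2 of the 5 pericyte markers numbered 193 of 1901 thinned cells in BRCA1-null B. Among them 44.6% had a Cox4i2 UMI, against 11.5% of the other 1708. For Ndufa4l2 the shares were 46.6% and 3.16%. Cells with Vim, a mesenchymal marker, and without Epcam carried Cox4i2 in 32.3% of 458 and Ndufa4l2 in 19.7%. By comparison, cells with Epcam and without Vim carried Cox4i2 in 9.44% of 445 and Ndufa4l2 in 0.899%. As levels in the thinned cells, Cox4i2 was at 387 CPM in pericyte-marker cells and 58.4 in cells with Epcam and without Vim, and Ndufa4l2 at 556 and 5.99. Free RNA can put UMIs into droplets of cells that do not express a gene, and its part here was not tested. In sums made after the data had been seen, the calls held when cells with at least 2 pericyte markers were left out (log2 fold changes 7.25 and 5.15, edgeR, adjusted p = 0.00702 and 0.00917) and when only cells with an Epcam UMI were summed, which kept 1790 of the 2078 cells of BRCA1-null B (7.49 and 6.52, edgeR, adjusted p = 0.00702 and 0.00396).

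Cox6b2, the testis isoform of subunit 6B, behaved otherwise, being higher in BRCA1-null A at 53.8 CPM than in B at 11.2, against 0.0552 to 0.859 elsewhere (log2 fold change 6.94, SE 0.71, edgeR, adjusted p = 0.00168). In BRCA1-null A 42.0% of the cells had a Cox6b2 UMI, and 11.7% of 222 thinned cells. Thinned cells of BRCA1-null A with Epcam alone and with Vim alone carried it in 13.9% of 36 and 11.5% of 122. It was also the member lower in PyMT, at 0.0552 and 0.0796 (edgeR, adjusted p = 0.0157), which is 1 and 3 UMIs. BRCA1-null is part of the reference of that comparison, and Neu A, Neu B and 4T1 stood at 0.859, 0.297 and 0.099. Of the common partners, Cox4i1 and Cox6b1 were lower in BRCA1-null. Cox4i1 stood at 747 and 1070, against 1982 and 2078 in Neu, 1453 and 1379 in PyMT, and 1612 for the 4T1 library (log2 fold change -1.17, SE 0.30, edgeR, adjusted p = 0.0301), and no library of BRCA1-null reached the lowest of the others. Cox6b1 was lower by a log2 fold change of -1.07 (edgeR, adjusted p = 0.0416). Both calls were lost when BRCA1-null A or any PyMT or Neu library was left out (edgeR, adjusted p up to 0.085 for Cox4i1 and 0.117 for Cox6b1), and that of Cox6b1 also without BRCA1-null B and with library totals. The other partner, Ndufa4, was at 862 and 992 against 607 to 1265 (log2 fold change -0.30, edgeR, adjusted p = 0.464).

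**Figure D3:**
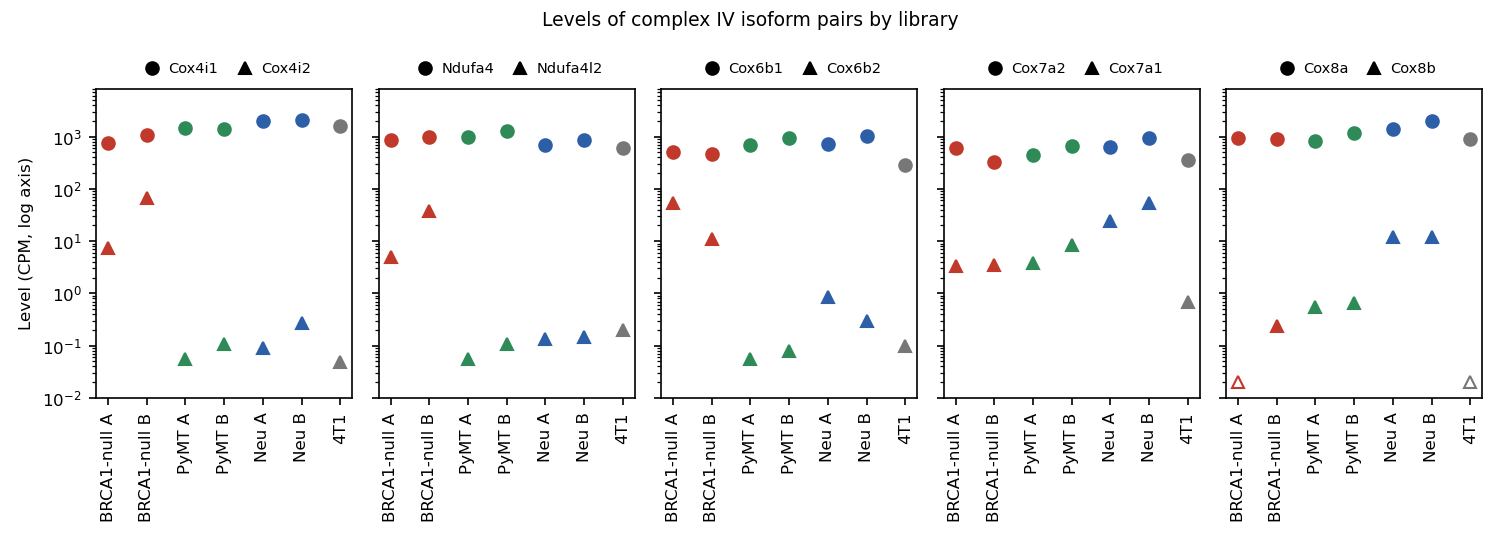
Level (CPM, log axis) of the common (circles) and restricted (triangles) isoforms of complex IV in each library; colors mark tumor types and open triangles, drawn at 0.02, mark libraries with 0 UMIs. Cox4i2, Ndufa4l2 and Cox6b2 are above 5 in both BRCA1-null libraries and below 1 elsewhere, and Cox8b is at 12.2 in both Neu libraries and below 1 elsewhere.

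In Neu tumors the heart and muscle isoforms of 2 other subunits were higher. Cox8b (chromosome 7, 140898945 to 140900446, minus strand, mm10) stood at 12.2 in Neu A and 12.2 in Neu B. It had 0 UMIs in BRCA1-null A and in 4T1, 0.237 CPM in BRCA1-null B and 0.552 and 0.663 in PyMT (log2 fold change 5.16, SE 0.49, edgeR, adjusted p = 0.00213). This call was kept in all 20 alternative settings. Cox7a1 (chromosome 7, 30184144 to 30186078, plus strand) stood at 24.1 and 53.1 in Neu, 3.81 and 8.30 in PyMT, 3.41 and 3.42 in BRCA1-null and 0.693 in 4T1 (log2 fold change 3.13, SE 0.46, edgeR, adjusted p = 0.00588), with adjusted p = 0.0549 without Neu B. Neither gene overlapped between Neu and the other libraries. At 3000 UMIs a cell, Cox7a1 UMIs were found in 7.28% and 14.3% of the cells of Neu A and B and in 0.178% to 2.34% elsewhere, and Cox8b UMIs in 3.04% and 3.64% and in at most 0.111%. At full depth the Neu shares were 17.5% and 47.1% for Cox7a1 and 8.54% and 11.4% for Cox8b.

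Muscle genes had UMIs in the Neu libraries, but not only there. The muscle isoform Cox6a2, which was too low to test, had 4 and 0 UMIs in Neu A and B and 16 in BRCA1-null B. Ckm, muscle creatine kinase, had 50 and 22 UMIs in Neu A and B (2.26 and 0.654 CPM). In BRCA1-null A, which had 0 Cox8b UMIs, it had 11 (1.97 CPM). Acta1, skeletal muscle actin, had 183 and 0 UMIs in Neu A and B and at most 4 in any other library. The part of muscle RNA in the levels of Cox7a1 and Cox8b was not tested. The common isoforms Cox7a2 (637 and 942 in Neu, 331 to 669 in the others; log2 fold change 0.69, edgeR, adjusted p = 0.167) and Cox8a (1385 and 1951 against 835 to 1166; 0.84, edgeR, adjusted p = 0.0772) did not pass the test. Both Cox7a1 and Cox8b were also called lower in BRCA1-null (edgeR, adjusted p = 0.0174 and 0.00656), and the call of Cox7a1 was lost without PyMT B and at 3000 UMIs a cell.

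Complex I is the largest of the complexes, and its 36 nuclear subunits gave 2 calls in Neu, both higher (5.56%, against 13.4% of all genes), and 2 in BRCA1-null, both lower (5.56%, against 9.72%). Ndufs7, which carries the last iron-sulfur cluster on the way to ubiquinone, stood at 249 and 256 in Neu, against 103 and 125 in PyMT, 171 and 115 for BRCA1-null and 162 for 4T1 (log2 fold change 1.03, SE 0.23, edgeR, adjusted p = 0.0218). Ndufs3, another core subunit of the peripheral arm, stood at 190 and 192 in Neu, against 68.1 and 93.1 in PyMT, 133 and 98.7 for BRCA1-null and 114 for 4T1 (1.02, SE 0.23, edgeR, adjusted p = 0.0227). In both genes the Neu replicates were nearly equal and above every other library. Each call was lost when any PyMT or Neu library was left out. In BRCA1-null, Ndufb7 was lower, at 121 and 148 against 216 to 329 in the 5 other libraries (-1.28, SE 0.28, edgeR, adjusted p = 0.0172), a call lost without PyMT B or Neu B. Ndufb4 was the other, at -1.02 (edgeR, adjusted p = 0.0396), and both are accessory subunits of the membrane arm.

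Assembly factors of complex I moved in both directions. Ndufaf3 stood at 49.9 and 40.4 in Neu, 22.0 and 27.2 in PyMT, 11.1 and 15.6 in BRCA1-null and 19.4 in 4T1. It was higher in Neu (log2 fold change 1.32, SE 0.27, edgeR, adjusted p = 0.0166) and lower in BRCA1-null (-1.57, SE 0.30, edgeR, adjusted p = 0.0109), and no FVB tumor type overlapped with another. The BRCA1-null call was kept in all 20 alternative settings, and the Neu call was lost when any PyMT or Neu library was left out. Ndufaf1, with 3.56 to 10.4 CPM in all libraries, followed the same order (edgeR, adjusted p = 0.0473 and 0.0393). Ndufaf6 went the other way, at 27.4 and 16.5 in BRCA1-null against 6.68 to 10.4 in PyMT and Neu and 16.0 in 4T1 (0.99, edgeR, adjusted p = 0.0444).

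Among the mitochondrial genes of complex I, mt-Nd6 was the member called lower in Neu. It stood at 3.66 and 5.38 in Neu, 9.0 and 9.52 in PyMT, 18.3 and 11.2 in BRCA1-null and 22.5 in 4T1 (log2 fold change -1.31, SE 0.35, edgeR, adjusted p = 0.0382). Both Neu libraries were below all others, on 81 and 181 UMIs. The call was lost at 3000 UMIs a cell (edgeR, adjusted p = 0.0725), with a block for the replicate (edgeR, adjusted p = 0.0503) and without any PyMT or Neu library. The 6 other mt-Nd genes had log2 fold changes of -0.95 to -0.31 in Neu, and none passed the test. mt-Nd1, for example, stood at 3332 and 3370 in Neu against 4444 to 5571 in BRCA1-null and PyMT (-0.50, edgeR, adjusted p = 0.206). mt-Cytb of complex III (-0.30), mt-Co2 (-0.17), mt-Co3 (-0.10) and mt-Atp6 (-0.24) were nearer to 0, and mt-Co1 (0.29) and mt-Atp8 (0.10) were positive. In 6 of the 13 both Neu libraries lay below the 4 others, against 18.2% of all genes.

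Succinate dehydrogenase gave no call between tumor types (unadjusted p under 0.05 for 3 of its 4 genes in Neu and for none in the other comparisons). Sdha, the flavoprotein, stood at 141 and 86.5 in Neu and 44.3 to 106 elsewhere (log2 fold change 0.85, edgeR, adjusted p = 0.0955), and Sdhb, the iron-sulfur subunit, at 97.1 to 245 over all libraries (0.14, edgeR, adjusted p = 0.711). The 8 nuclear genes of complex III gave none either in edgeR, with 2 at an unadjusted p under 0.05 in BRCA1-null, 2 in Neu and 0 in PyMT. All 8 had a negative change in BRCA1-null (-0.90 to -0.05), and 7 of 8 a positive one in Neu.

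In the ATP synthase, Atp5o, which links the catalytic head to the stator, stood at 576 and 693 in Neu, 300.1 and 386 in PyMT, 273 and 301 in BRCA1-null and 319 in 4T1 (log2 fold change 1.05, SE 0.26, edgeR, adjusted p = 0.0286). Atp5c1, the rotating gamma subunit, stood at 642 and 715 in Neu and 285 to 510 elsewhere (0.90, SE 0.24, edgeR, adjusted p = 0.0396). The 2 Neu libraries were the highest in both genes, and both calls were lost when any PyMT or Neu library was left out, that of Atp5c1 also with library totals. Atp5o (-0.99, edgeR, adjusted p = 0.038) and Atp5j (-1.13, edgeR, adjusted p = 0.0351), a neighbor of it in the peripheral stalk, were lower in BRCA1-null, and the call of Atp5o was lost with library totals and without any library but BRCA1-null B. The 3 genes for the c subunit of the rotor ring, Atp5g1, Atp5g2 and Atp5g3, passed the test in no comparison of tumor types (log2 fold changes -0.51 to 0.57).

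PyMT tumors had 2 nuclear members higher, and both lie near the end of chromosome 11. Atp5h (115415689 to 115419962, minus strand, mm10), a peripheral stalk subunit of the ATP synthase, stood at 1671 and 1842 in PyMT A and B, 716 and 710 in BRCA1-null, 724 and 795 for Neu and 580 for 4T1 (log2 fold change 1.51, SE 0.23, edgeR, adjusted p = 0.0102). Ndufaf8 (120098928 to 120100705, plus strand), an assembly factor of complex I, stood at 180 and 179 in PyMT, 71.9 and 40.9 in BRCA1-null, 73.7 and 90.7 for Neu and 57.5 for 4T1 (1.67, SE 0.26, edgeR, adjusted p = 0.011). In both genes the PyMT libraries were close to each other and every other library was lower. Without PyMT A, PyMT B or Neu A the adjusted p reached 0.0962 for Atp5h and 0.0912 for Ndufaf8. Both genes were also called lower in BRCA1-null, a comparison in which PyMT is part of the reference (-0.98 and -1.43, edgeR, adjusted p = 0.0279 and 0.013).

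Their neighbors moved with them. The starts of the genes are 4.68 Mb apart, and of 90 other genes tested between them 54 were higher in PyMT (60.0%) and 1 lower. Over the chromosome from 110 Mb on, 104 of 171 genes were higher (60.8%), with a median log2 fold change of 1.52, against 66 of 977 before it (6.76%), with a median of -0.17. This boundary was set after the values had been seen. The 3 other members on chromosome 11 lie outside the stretch, and none passed the test (Uqcr10 0.14, Uqcrq 0.14 and Atp5g1 0.13, edgeR, adjusted p = 0.756 to 0.818). Of 78 genes of the mitochondrial ribosome 5 were higher in PyMT, a share near the 7.05% of all genes, and 4 of these 5 (Mrpl58, Mrps7, Mrpl38 and Mrpl12) are all 4 tested members of that list in the stretch. Neighbors within 2.5 Mb of other called members were counted too. In Neu, 37.8% of 37 near Atp5o and 37.5% of 16 near Atp5c1 were higher, against 13.4% of all genes. Near the other nuclear members higher in Neu, the shares were 10.3% to 22.2%. Near members lower in BRCA1-null, the share lower ran from 11.1% (Atp5j) to 35.2% (Ndufaf8), against 9.72% of all genes. It was 32.0% near Cox4i1. DNA was not measured in these samples, and the causes were not tested. Both PyMT libraries grew from 1 cell line.

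**Figure D4:**
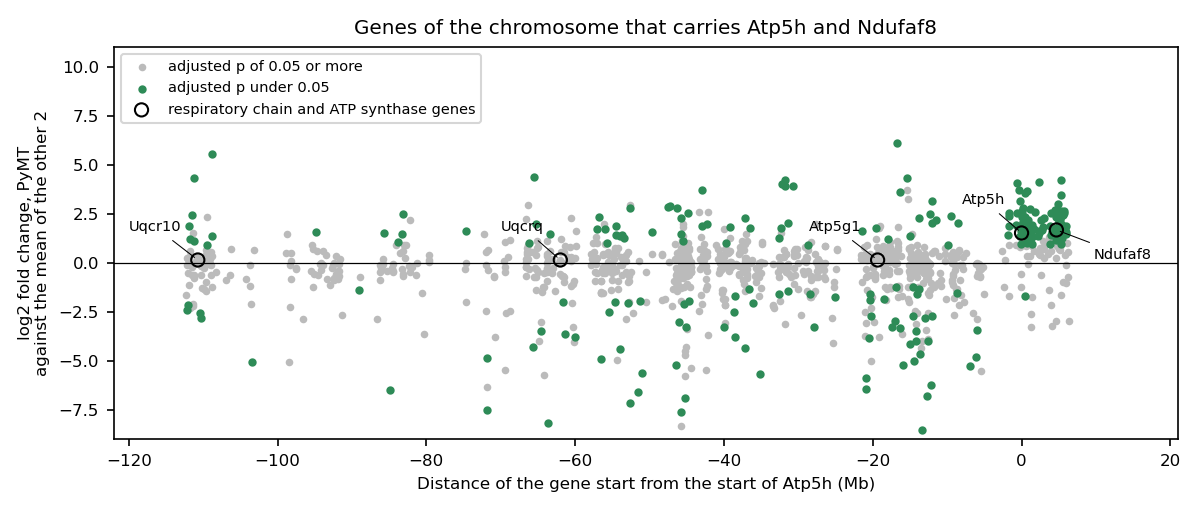
log2 fold change (edgeR) of each gene of chromosome 11 in PyMT against the mean of BRCA1-null and Neu, by the distance of its start from that of Atp5h (Mb); green points have an adjusted p under 0.05 and circles mark members. From 110 Mb on, just before Atp5h at 0, 60.8% of genes are higher, and the circles of Uqcr10, Uqcrq and Atp5g1 lie near 0 outside that stretch.

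The same genes were then compared within libraries, between proliferating cells and the other cells. A cell was called proliferating when it had UMIs of at least 2 of 8 markers (Nusap1, Tpx2, Ccna2, Ube2c, Cenpf, Ccnb1, Cdk1, Top2a), which held for 29.5% of cells in 4T1, 52.7% and 18.7% in BRCA1-null A and B, 2.99% and 8.31% in Neu A and B and 2.05% and 10.2% in PyMT A and B. Proliferating cells were deeper, with median UMIs of 12951.5 to 30923 against 8528 to 18581, and deeper cells are more readily called. Nuclear members took a larger share of UMIs in the proliferating cells of 7 of 7 libraries, for example 3.85% against 2.91% in PyMT B, 3.21% against 2.40% in PyMT A and 3.32% against 3.22% in Neu A. The order was the same in 7 of 7 when cells were called and summed at 3000 UMIs. Mitochondrial members took a smaller share in 7 of 7 libraries at full depth, for example 3.84% against 5.06% in BRCA1-null A. At 3000 UMIs, however, their share was higher in BRCA1-null B, PyMT A and PyMT B and lower in the other 4 libraries.

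In the test with library as a block (edgeR, 11082 genes, 7 libraries with a pair of sums each), 21 of 85 nuclear members were higher in proliferating cells (24.7%, against 13.2% of all genes) and 4 lower (4.71%, against 21.4%). The median log2 fold change was 0.14, against -0.12 for all genes. Of the 13 mitochondrial members 0 were higher and 8 lower, with a median of -0.22. With library totals in place of TMM the counts were 53 higher and 2 lower among nuclear members and 2 lower among mitochondrial ones, so the number depends on scaling, and at 3000 UMIs they were 5, 4 and 3. The shares of all genes called under these settings are not given. Relative to all genes, the nuclear median was 0.26 with TMM and 0.28 with library totals. It was 0.18 at 3000 UMIs, where 5286 genes were tested. The nuclear count was 11 without PyMT B, 13 without BRCA1-null B, 14 without PyMT A and 29 without Neu A, and the mitochondrial count was 3 without BRCA1-null A, 5 without PyMT A and 5 without Neu A. In unscaled levels 49 of 85 nuclear members were higher in proliferating cells of 7 of 7 libraries, as were 1719 of 11082 genes.

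**Figure D5:**
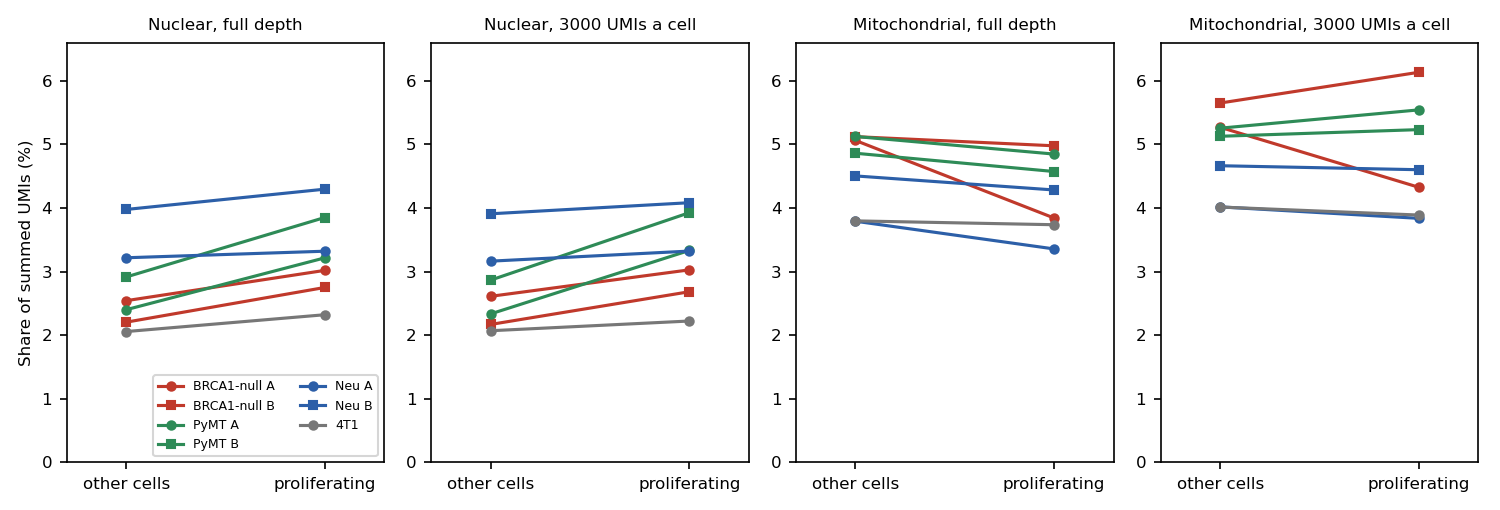
Share of summed UMIs (%) in nuclear and mitochondrial members in other and in proliferating cells of each library, at full depth and with each cell thinned to 3000 UMIs; each line joins the 2 sums of 1 library, colored by tumor type, with squares for replicate B. Nuclear lines rise in 7 of 7 libraries at both depths, whereas mitochondrial lines fall in 7 of 7 at full depth and rise in BRCA1-null B, PyMT A and PyMT B at 3000 UMIs.

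The nuclear members higher in proliferating cells came from every complex, but unevenly. They were 9 of 36 subunits of complex I, 2 of 8 of its assembly factors, 2 of 4 in complex II, 2 of 8 in III and 5 of 15 in V. In complex IV only 1 of 13 was higher (7.69%, against 13.2% of all genes). Ndufaf2, an assembly factor of complex I, had the largest change and the smallest p (log2 fold change 0.99, SE 0.14, edgeR, adjusted p = 7.65e-05). Its level was 130 against 73.3 CPM in BRCA1-null A, 81.3 against 28.6 in PyMT B, 116 against 32.8 in Neu A and 44.4 against 34.4 in 4T1. Ndufab1, the mitochondrial acyl carrier protein, which also serves fatty acid synthesis, had the next smallest p (0.58, SE 0.09, edgeR, adjusted p = 0.000205), then Sdhd, a membrane anchor of complex II (0.50, SE 0.09, edgeR, adjusted p = 0.000667), Ndufa5 of complex I (0.48) and Uqcr10 of complex III (0.36). These 5 were higher in 7 of 7 libraries. Sdhb (0.28), Cox5a (0.34), Atp5g1 (0.37) and Atp5g3 (0.32) were among the others. Uqcrh, the hinge protein of complex III, was lower by the fit (-0.33, SE 0.08, edgeR, adjusted p = 0.00361) and lower in 7 of 7 libraries, as was Ndufa6 (-0.35). Cox7a2l, a supercomplex factor (-0.27), and Ndufa7 (-0.29) were each lower in 6 of 7, and both calls were lost with library totals.

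The 3 mitochondrial genes of complex IV were the most uniform. mt-Co1 was lower in proliferating cells of 7 of 7 libraries, for example at 3954 against 5376 CPM in BRCA1-null A, 5384 against 6903 in Neu B and 3418 against 3466 in 4T1 (log2 fold change -0.40, SE 0.08, edgeR, adjusted p = 0.00121). mt-Co3 (-0.36, SE 0.07, edgeR, adjusted p = 0.00106) and mt-Co2 (-0.26) were also lower in 7 of 7, and no other mitochondrial member was. For mt-Co2 the levels in 4T1 were nearly equal, at 4008 against 4010 CPM, and its call was lost with library totals. mt-Co1 and mt-Co3 were called under library totals too. mt-Nd2, mt-Nd4, mt-Nd5, mt-Cytb and mt-Atp6 were called with TMM and not with library totals, and their unscaled levels rose in 2 or 3 of the 7 libraries.

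Whether the change in proliferating cells differed between BRCA1-null, PyMT and Neu was tested with an interaction term. None of 98 members passed (0 at an adjusted p under 0.05 in edgeR, against 1.15% of 10903 genes; DESeq2 was not run for it), although 46 of 85 nuclear members (54.1%) had an unadjusted p under 0.05, as did 12.9% of all genes. The median change of nuclear members was 0.23 and 0.35 in the first 2 and -0.07 in Neu, against -0.10, -0.06 and -0.16 for all genes, so that it lay above the rest in each. The smallest adjusted p was that of Ndufb8 (edgeR, adjusted p = 0.05, with log2 fold changes of 0.57, 0.57 and -0.05).

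Genes that build, feed and regulate the chain were taken from fixed lists. Of 42 assembly factors and cytochrome c genes outside the prefixes, 9 were higher in Neu and 1 lower (against 13.4% and 9.76% of all genes), and 1 was higher and 6 lower in BRCA1-null (against 17.8% and 9.72%). Cox20 and Coa3, both assembly factors of complex IV, were at 108 and 133 and at 143 and 125 in Neu against 38.2 to 52.9 and 54.5 to 75.4 elsewhere (log2 fold changes 1.41 and 1.10, edgeR, adjusted p = 0.0107 and 0.0143). Cytochrome c, Cycs, was the one lower in Neu, at 208 and 221 against 293 to 441. Of 19 citric acid cycle and pyruvate genes, 3 were higher in Neu, among them both subunits of the pyruvate carrier, Mpc1 and Mpc2 (0.92 and 1.10, edgeR, adjusted p = 0.0225 and 0.0296). PyMT had 1 lower in this list, Fh1 (-1.06, edgeR, adjusted p = 0.0418), and in BRCA1-null 0 of 19 were called in edgeR, with 3 at an unadjusted p under 0.05.

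Of 11 regulators of mitochondrial biogenesis, 2 were higher and 1 lower in Neu (against 13.4% and 9.76% of all genes). In BRCA1-null 2 were higher (against 17.8% of all genes), and most of the called regulators had low counts. Ppargc1a, a coactivator of mitochondrial biogenesis, was at 7.19 and 5.88 in Neu, 0.552 and 0.292 in PyMT, 0.717 and 3.69 for BRCA1-null and 0.0495 for 4T1. It was called higher in Neu and lower in PyMT (-3.03, edgeR, adjusted p = 0.0444). Esrrg, the estrogen-related receptor gamma, was at 2.03 and 2.14 in Neu against at most 0.717 elsewhere (2.56, edgeR, adjusted p = 0.0179), whereas Myc was at 29.5 and 23.7 against 62.3 to 101 (-1.33, edgeR, adjusted p = 0.0121). In BRCA1-null Ppargc1b, a relative of Ppargc1a, was higher at 3.05 and 2.17 against 0.0891 to 0.588 in PyMT and Neu (3.23, edgeR, adjusted p = 0.0183), as was Pparg at 0.717 and 0.61 against at most 0.0552 (4.54, edgeR, adjusted p = 0.0175). Of 27 genes of mitochondrial transcription and RNA, 3 were higher and 1 lower in Neu (against 13.4% and 9.76% of all genes). In BRCA1-null 2 were higher and 1 lower (against 17.8% and 9.72% of all genes). Lrpprc, which stabilizes mitochondrial mRNA, was higher in BRCA1-null (1.17, edgeR, adjusted p = 0.0168).

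Of 20 membrane and import genes, 5 were higher in BRCA1-null, where 17.8% of all genes were. Hspd1, the mitochondrial chaperonin, stood at 711 and 529 in BRCA1-null and 526 in 4T1 against 93.3 to 156 in PyMT and Neu (log2 fold change 1.95, SE 0.22, edgeR, adjusted p = 0.00247), and Slc25a4, which exchanges ADP and ATP, at 849 and 487 in BRCA1-null and 624 in 4T1 against 180 to 298 in PyMT and Neu (1.17, edgeR, adjusted p = 0.0166). The mitochondrial ribosome had 1 of 78 genes higher and 11 lower in BRCA1-null (against 17.8% and 9.72% of all genes). In Neu it had 5 higher and 4 lower (against 13.4% and 9.76% of all genes). In proliferating cells, where 13.2% of all genes were higher and 21.4% lower, 47 of 77 ribosome genes were higher (median 0.33), led by Mrpl18 (1.04, edgeR, adjusted p = 1.15e-06), as were 11 of 20 membrane and import genes, led by Timm50 (0.97, edgeR, adjusted p = 1.24e-06), 9 of 40 assembly factors with 4 lower, 5 of 19 citric acid cycle genes and 4 of 26 transcription and RNA genes.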

How the data were processed

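Droplet single-cell 3' RNA libraries (10x Genomics) had been aligned to mm10 and counted by the authors with Cell Ranger (2.2.0 and 3.0.2 per the labels, 3.0.2 per the file headers). What the authors deposited are unscaled counts of UMIs for each gene in each barcode. Members and gene lists were chosen with earlier results of these data known.

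Cells with at least 1000 UMIs, 500 genes and under 20% mitochondrial UMIs were kept, and 78 predicted doublets (Scrublet in scanpy 1.11.5) stayed in, with their removal as an alternative. Counts were summed per library, 5578911 to 37693300 UMIs, which limits genes of few UMIs in BRCA1-null A. Sums were tested in R 4.3.3 with edgeR 4.0.16 (TMM, filterByExpr, quasi-likelihood test, Benjamini-Hochberg over all genes tested), each tumor type against the mean of the other 2 over 6 libraries. Proliferating and other cells were compared over 7 libraries with library as a block. Tumors of replicates A and B are separate samples, and p-values measure only the spread between these libraries. The fits were tested on simulated data.

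Genes were named by rule: the mitochondrial members, isoform groups, Sdha to Sdhd, up to 5 nuclear members per comparison and direction with the smallest adjusted p under 0.05 and a mean of at least 20 CPM, and up to 2 genes per related list and comparison. Other members named, and Cycs, were chosen after their values were seen. The list entry Prorp was found as 1110008L16Rik, and 1 entry, Fastkd4, was not found. Alternatives were DESeq2 1.42.0, its size factors, library totals, other cell and gene filters, thinning, a replicate block and leaving out each library. The study sequenced replicates A and B in separate batches. Deviations of same-lettered libraries from their group means had correlations of 0.02, 0.10 and 0.20 over genes, so the letters were not used to pair samples in the tests above. These correlations are over all genes tested, and some members, such as mt-Atp8 and mt-Nd3, rose from A to B in both PyMT and Neu.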

Additional observations from a re-analysis of the deposited data

How the results depend on the processing

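Of the counts and sums under the alternatives, 269 stayed within 1.5 times the value given or within 1 SD and 63 did not. Counts of members called are given here without the share of all genes called in the same setting. DESeq2 called 20 nuclear members lower in BRCA1-null, 5 lower in PyMT and 19 higher and 2 lower in Neu. Without the filter on low counts the same 4 counts were 20, 4, 19 and 2, with 1 mitochondrial member higher in PyMT and 2 lower in Neu, and 5 nuclear members higher in proliferating cells. Library totals gave 7 lower and 1 mitochondrial member higher in BRCA1-null, 4 lower in PyMT, and in proliferating cells 53 nuclear members higher, 2 lower and 2 mitochondrial members lower. Thinning to 3000 UMIs gave 2 higher in BRCA1-null, 2 lower in PyMT and 0 mitochondrial members lower in Neu, and calling cells at that depth gave 5 nuclear members higher and 3 mitochondrial members lower. Without a library block 0 nuclear members were higher, 0 lower and 0 mitochondrial members lower in proliferating cells. The summed mitochondrial share was 5.77% in BRCA1-null and 5.31% in PyMT over every barcode, and 5.54% and 5.34% as a mean over cells. The log2 fold change of mt-Nd5 in proliferating cells turned to 0.020 at 3000 UMIs. Causes were not tested.

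With a replicate block, which also stands for the sequencing batch, 3 nuclear members were lower in PyMT and 1 in Neu, and mt-Nd6 was no longer called in Neu (edgeR, adjusted p = 0.0503). It changed no other call of a mitochondrial or named nuclear member between tumor types.

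Leaving out 1 library at a time gave 3 to 5 nuclear members higher and 2 to 10 lower in BRCA1-null, 0 to 2 and 0 to 4 in PyMT, and 1 to 17 and 0 to 2 in Neu with 0 to 1 mitochondrial members lower. In proliferating cells it gave 11 to 29 higher, 2 to 7 lower and 3 to 9 mitochondrial members lower. The nuclear share ran from 2.37% to 2.88% in BRCA1-null, 2.43% to 3.05% in PyMT and 3.22% to 4.02% in Neu, and the mitochondrial share from 4.19% to 5.08%, 4.82% to 5.11% and 3.77% to 4.47%. With 2 libraries per tumor type and 1 to 25 UMIs of Cox4i2, Ndufa4l2, Cox6b2 or Cox8b in most other libraries, the size of their changes is known only roughly.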
